A study of Homo sapiens with 4 samples.

Results

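The 10 genes described here are used to tell epithelial from mesenchymal cells and were followed through 4 human prostate cancer cell arrays. They were taken as every probe set annotated with a single one of the symbols VIM, FN1, TWIST1, ZEB1, SNAI2, EPCAM, KRT8, KRT18, CD24 and ELF3, which gave 12 probe sets and 10 genes of 18417 named genes. The first 5 are mesenchymal markers and the last 5 are epithelial markers. The arrays were an LNCaP array, an array of LTAD cells that were not transfected, and arrays of LTAD cells transfected with a control siRNA (siControl) or with an siRNA against PSF (siPSF). LNCaP is an androgen-responsive prostate cancer line, here held for 24 h in hormone-free medium with 2.5% charcoal-stripped serum. LTAD is a subline that arose from LNCaP after long androgen deprivation and was grown without hormone in 10% stripped serum. PSF is the RNA-binding protein encoded by SFPQ. Each group was 1 array of 1 cell line, so line, serum and array cannot be told apart, and no difference below has an error or a test. The siRNA sequences, their dose and the time after transfection are not used here.

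Epithelial cells are held in sheets by cadherin junctions and carry keratin filaments, whereas mesenchymal cells are loosely attached, carry vimentin filaments and lay down fibronectin-rich matrix. In the epithelial-mesenchymal transition, factors of the SNAI, ZEB and TWIST families repress epithelial genes, often through E-box sequences in their promoters. LNCaP is a luminal epithelial line, and gain of mesenchymal features is one of the routes discussed for prostate cancers that escape androgen deprivation.

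All levels are log2. The deposited columns were not on a common scale, with medians over 33297 probe sets of 6.91 in LNCaP, 7.20 in LTAD, 5.98 in siControl and 6.04 in siPSF. Levels were therefore also put on a common scale by quantile normalization. Differences between siPSF and siControl are given from deposited values, whose median difference over all named genes was 0.01, and all others after quantile normalization. On deposited values the median gene differed by -1.02 for siControl against LTAD and by -0.75 for siControl against LNCaP. A deposited level under 7.24, the median of all gene values, is called dim below, since nothing shows that it exceeds background. Of the 10 genes, 9 reached that value in at least 1 array and ZEB1 reached it in none. SFPQ, the siRNA target, read 9.46 with siPSF and 10.91 with siControl on the deposited scale, a 2.72-fold lower level, and 11.12 in LNCaP and 11.25 in LTAD.

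The labelled cell type was checked against marker genes. Of 5 luminal prostate genes measured, 4 reached the filter value in LNCaP and LTAD and 3 did so in siControl and siPSF, with the homeobox gene HOXB13 between 10.70 and 10.93 after quantile normalization. KLK3, the gene of prostate-specific antigen, read 12.89 in LNCaP, 11.06 in LTAD, 7.47 in siControl and 7.11 in siPSF. It was dim in both transfected arrays, whose deposited columns lay lower as a whole. The keratin gene KRT19 was dim in all 4. Of 7 basal genes 3 were dim in every array, of 10 stromal genes 7, of 5 endothelial genes all 5, and of 5 immune genes 4.

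The regulatory sequence before 3 of the genes is shown because VIM and FN1, both mesenchymal markers, ran in opposite directions through the arrays and because ELF3 carries the E-box that epithelial repressors are known to bind. The windows are the 250 bases before the annotated start in the RefSeq promoter table of GRCh38.p14, 5′ to 3′ on the gene's strand, in which 6 of the 10 genes matched by symbol (CD24, ELF3, FN1, KRT8, VIM and ZEB1) with 14 windows. Capitals mark matches to 4 motifs searched on both strands, the E-box CAGGTG, the GC box GGGCGG, the cyclic AMP response element core GACGTC and the TATA box TATAAA.

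VIM, chr10:17227991-17228240, plus strand: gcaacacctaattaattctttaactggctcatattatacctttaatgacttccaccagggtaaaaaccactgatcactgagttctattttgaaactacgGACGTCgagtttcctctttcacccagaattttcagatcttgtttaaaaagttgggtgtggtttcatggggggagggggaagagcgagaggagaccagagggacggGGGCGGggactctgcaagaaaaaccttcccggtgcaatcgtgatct

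FN1, chr2:215436069-215436318, minus strand: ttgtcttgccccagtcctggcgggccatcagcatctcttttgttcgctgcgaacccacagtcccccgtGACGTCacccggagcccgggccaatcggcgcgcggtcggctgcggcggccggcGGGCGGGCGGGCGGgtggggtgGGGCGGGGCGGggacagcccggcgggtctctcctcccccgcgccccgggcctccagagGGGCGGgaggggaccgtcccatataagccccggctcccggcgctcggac

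ELF3, chr1:202010337-202010586, plus strand: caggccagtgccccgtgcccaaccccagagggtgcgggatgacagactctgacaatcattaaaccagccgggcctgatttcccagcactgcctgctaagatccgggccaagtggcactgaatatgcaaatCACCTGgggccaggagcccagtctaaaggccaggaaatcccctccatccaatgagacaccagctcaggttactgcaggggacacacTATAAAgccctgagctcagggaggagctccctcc

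ELF3 had the E-box 120 bases before the start, read as CACCTG on the strand shown, and a TATA box 34 bases before it. FN1 had 6 GC boxes, some of which overlap each other, and a response element core 182 bases before the start. VIM had that core 151 bases and a GC box 46 bases before its start. Of the 35116 windows of this length in the table, 17.5% held the E-box, 42.6% the GC box, 4.36% the response element core and 10.7% the TATA box. The KRT8 window held none of the 4. The E-box was held by 1 of 3 CD24 windows and 2 of 7 ZEB1 windows. These matches describe the sequence and were not set against binding data.

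VIM, the main intermediate filament protein of mesenchymal cells, had the widest span of the 10 genes after quantile normalization, 2.15, and with median centring, 2.27. On deposited values it spanned 1.11 and FN1 had the widest span, 2.21. The VIM quantile-normalized level was 7.15 in LTAD, 7.84 in LNCaP, 9.03 in siControl and 9.31 in siPSF, and its deposited level was 7.76, 8.20, 8.63 and 8.87 in the same order. The transfected arrays were the high ones and untransfected LTAD the low one on both scales. None of these deposited levels was dim.

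FN1, the fibronectin gene, ran the other way. Its quantile-normalized level was 12.70 in LTAD, 12.54 in LNCaP, 11.69 in siControl and 11.17 in siPSF. The deposited levels were 13.04, 12.77, 11.37 and 10.83. Untransfected LTAD was therefore highest for FN1 and lowest for VIM, and siPSF lowest for FN1 and highest for VIM. With each array centred on its median these extremes were the same, except that FN1 in LNCaP, at 5.86, lay just above LTAD, at 5.84.

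TWIST1, a basic helix-loop-helix factor that represses epithelial genes, was highest in untransfected LTAD. It read 8.41 there after quantile normalization, 7.99 in siPSF, 7.73 in siControl and 7.08 in LNCaP. On deposited values LTAD read 8.94 and the other 3 arrays lay close together, at 7.26 in siControl, 7.45 in LNCaP and 7.53 in siPSF. The high LTAD array was thus seen on both scales, and the order of the other arrays was not, since LNCaP was lowest on one scale and siControl on the other.

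SNAI2, the zinc finger repressor SLUG, differed little. Its quantile-normalized level was 7.07 in LTAD, 7.43 in LNCaP, 7.67 in siPSF and 7.73 in siControl. The deposited levels were 7.69, 7.81, 7.20 and 7.26 in that order, so that the transfected arrays were the high pair on one scale and the low pair on the other. All lay near the filter value, and siPSF was dim, though after quantile normalization it read above LTAD, which was not dim. ZEB1, a repressor with zinc finger clusters and a homeodomain, was dim in every array, with deposited levels of 4.16 in LNCaP, 5.25 in LTAD, 3.86 in siControl and 4.10 in siPSF. Its readings carry no fold.

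EPCAM, an adhesion protein of epithelial cells, was lowest in untransfected LTAD after quantile normalization. There it read 10.59, against 11.08 in LNCaP, 11.44 in siPSF and 11.49 in siControl. On deposited values all 4 arrays lay between 11.04 and 11.35. In this probe set untransfected LTAD was the low array on both scales. A second EPCAM probe set read 10.24 in LTAD, 10.72 in LNCaP, 10.99 in siPSF and 11.04 in siControl after quantile normalization, with LTAD again lowest. Its deposited levels were 10.71 in LTAD, 11.01 in LNCaP, 10.62 in siPSF and 10.71 in siControl, so that siPSF was lowest there.

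KRT8 and KRT18, the keratins that pair into the filaments of simple epithelia, had the same order of arrays. KRT8 read 12.49 in LTAD, 12.07 in LNCaP, 12.04 in siPSF and 11.84 in siControl after quantile normalization. KRT18 read 12.09, 11.60, 11.50 and 11.31 in that order. Both were highest in untransfected LTAD and lowest in siControl, on deposited values too, where siControl read 11.51 for KRT8 and 10.99 for KRT18 and LTAD 12.81 and 12.44. With median centring KRT18 was again highest in LTAD, but KRT8 was highest in siPSF, at 5.70 against 5.61 in LTAD, and both were lowest in LNCaP.

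CD24, a glycoprotein on the surface of luminal epithelial cells, was also highest in untransfected LTAD, at 9.35 after quantile normalization. It read 8.996 in siPSF, 8.48 in siControl and 8.38 in LNCaP. ELF3, an ETS family factor of epithelial differentiation, had the narrower spread, with 9.24 in siPSF, 9.23 in LNCaP, 9.08 in LTAD and 8.82 in siControl. For ELF3 the deposited values gave another order, with LTAD at 9.58, LNCaP at 9.56, siPSF at 8.81 and siControl at 8.42, and siControl was lowest on both. With median centring LTAD was lowest, at 2.38 against 2.44 in siControl, so the order of ELF3 levels depended on the scale.

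**Figure D1:**
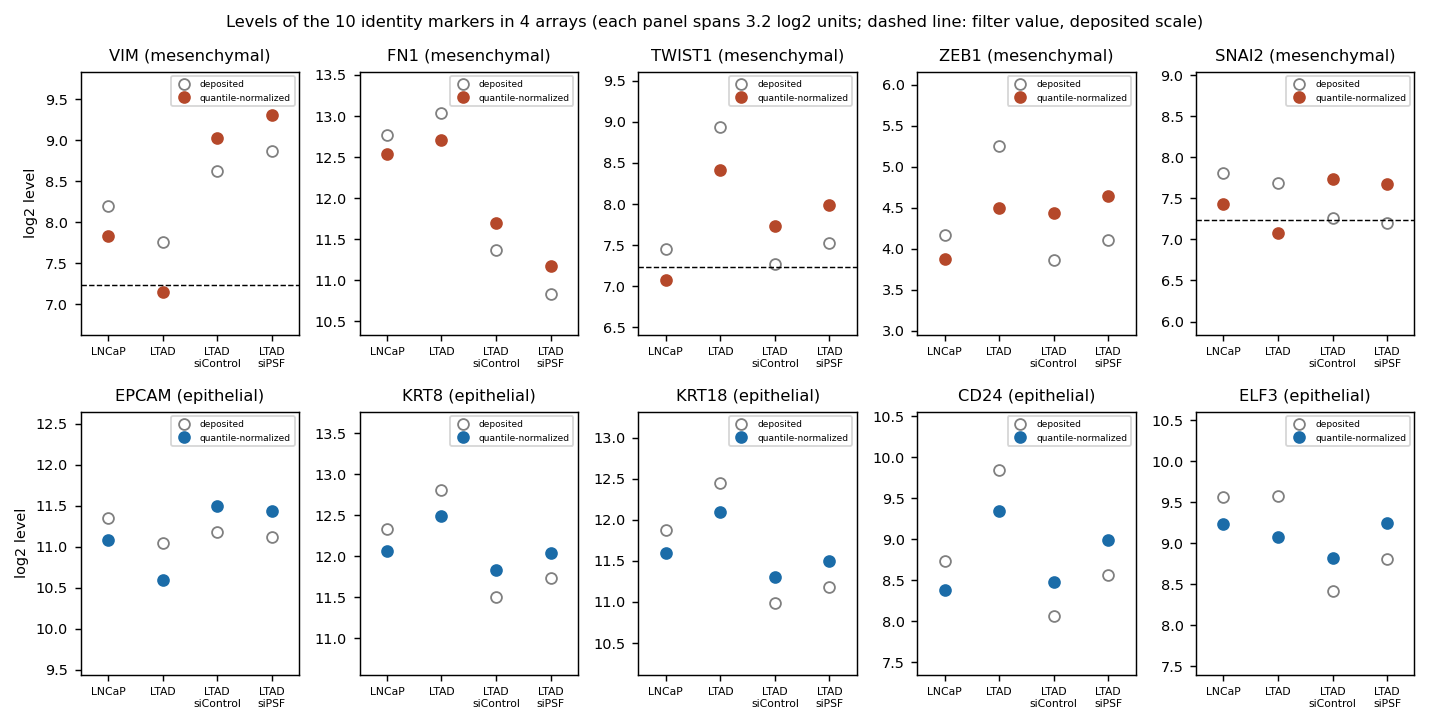
Log2 level (vertical axis) of each of the 10 genes in the LNCaP, LTAD, siControl and siPSF arrays (horizontal axis), with filled points quantile-normalized, red for mesenchymal and blue for epithelial genes, and open grey points deposited; each point is 1 array, every panel covers the same log2 range, and the dashed line is the filter value of 7.24, which applies to the open points. VIM lies at 7.15 in LTAD and 9.31 in siPSF while FN1 lies at 12.70 and 11.17, and KRT8 and KRT18 share one pattern.

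The first comparison, of untransfected LTAD with LNCaP, addresses what long androgen deprivation leaves different from the parent line. TWIST1 was 2.52-fold higher in LTAD and CD24 was 1.95-fold higher, whereas VIM was 1.61-fold lower and EPCAM 1.40-fold lower. Both directions were thus found among the mesenchymal and among the epithelial markers. TWIST1 alone of the 10 was at least 2-fold higher (1.69% of all named genes were), and 0 of 10 were at least 2-fold lower (2.55% of all named genes).

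The TWIST1 difference was 1.33 after quantile normalization, 1.49 on deposited values and 1.20 with each array centred on its median. CD24 differed by 0.96, and by 1.10 on deposited values, which passes 2-fold. On deposited values 3 of the 10 were at least 2-fold higher, TWIST1, CD24 and the dim ZEB1, beside 3.25% of all named genes. KRT8 and KRT18 were higher in LTAD by 0.42 and 0.49, and FN1 by 0.16, or -0.02 with median centring. VIM differed by -0.68, EPCAM by -0.48, SNAI2 by -0.36 and ELF3 by -0.15, the last at 0.02 on deposited values. The median was 0.42 over the 5 epithelial genes and 0.16 over the 5 mesenchymal genes, against 0.01 over all named genes. With median centring these medians were 0.19, -0.02 and -0.03. Of the mesenchymal genes that were not dim, TWIST1 and FN1 lay above 0 and VIM and SNAI2 below, FN1 only just and not with median centring, so no common direction was seen among them. The dim ZEB1 reading differed by 0.62 after quantile normalization and by 1.09 on deposited values.

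LTAD cells that had been transfected with siControl gave another picture against the same LNCaP array. VIM was 2.28-fold higher in siControl (1.19) and was the only member at least 2-fold higher, beside 2.19% of all named genes. No member of the 10 was at least 2-fold lower, beside 2.35% of all named genes. On deposited values VIM differed by 0.43, or 1.35-fold, which ends its call, and 0.369% of all named genes were at least 2-fold higher. There FN1, at -1.40, and ELF3, at -1.14, were at least 2-fold lower, beside 26.8% of all named genes. TWIST1 differed by 0.65 and by -0.19 on deposited values, so its higher level in LTAD was not seen at 2-fold in this array. VIM was below LNCaP in untransfected LTAD and above it in siControl, on both scales and with median centring. CD24 differed by 0.10 (-0.68 on deposited values), KRT8 by -0.23 and KRT18 by -0.30 (0.11 and 0.04 with median centring), ELF3 by -0.41 and FN1 by -0.85. EPCAM differed by 0.41, SNAI2 by 0.30 and the dim ZEB1 by 0.57, and these became -0.18, -0.54 and -0.31 on deposited values. The median was -0.23 over the 5 epithelial genes, or 0.11 with median centring, against 0.08 over all named genes. Over the 5 mesenchymal genes it was 0.57, the reading of the dim ZEB1. The LNCaP array is common to both comparisons.

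**Figure D2:**
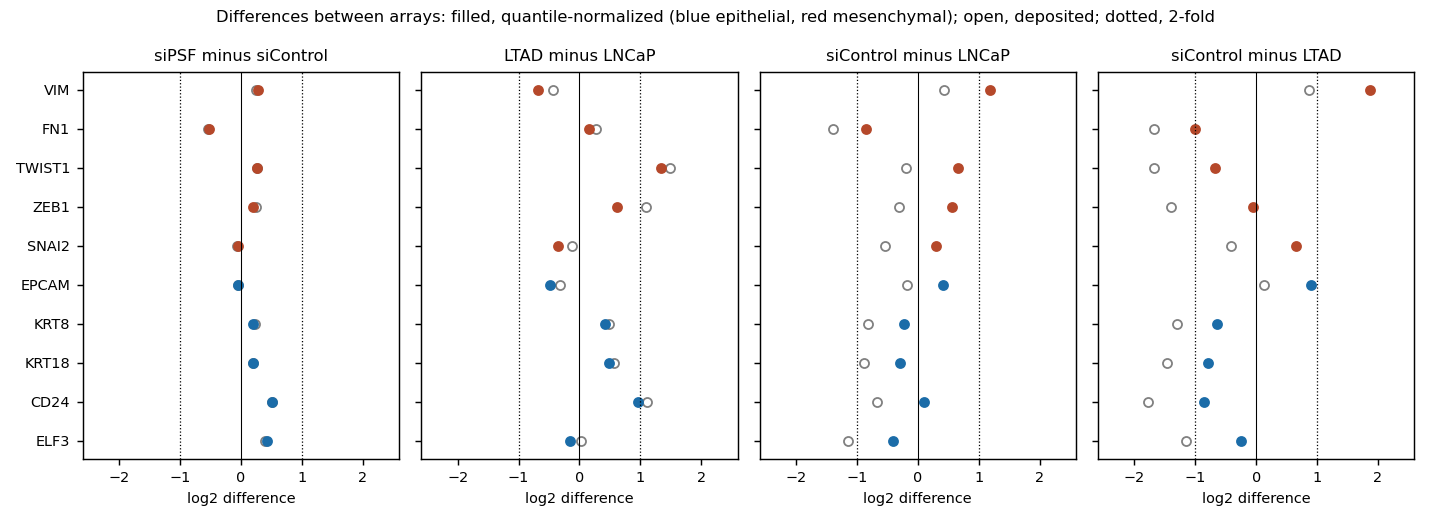
Log2 difference (horizontal axis) of each gene (vertical axis) in 4 comparisons of single arrays, with filled points quantile-normalized (red mesenchymal, blue epithelial), open grey points deposited, and dotted lines at 2-fold. In siPSF minus siControl all 10 genes lie inside the 2-fold lines, and in siControl minus LTAD VIM lies at 1.88 and FN1 at -1.01 after quantile normalization while 7 open points lie below the lower line.

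The knockdown comparison asks what loss of PSF does in the castration-resistant model. CD24 and ELF3 were the highest of the 10 genes in siPSF relative to siControl, 1.42-fold and 1.31-fold, and FN1 was the lowest, 1.45-fold below. No member reached 2-fold in either direction, beside 0.103% of all named genes that were at least 2-fold higher and 0.51% that were at least 2-fold lower.

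CD24 read 8.56 with siPSF and 8.06 with siControl on the deposited scale, a difference of 0.50. ELF3 read 8.81 and 8.42, a difference of 0.39. FN1 read 10.83 and 11.37, a difference of -0.54. Among the others TWIST1 differed by 0.27, VIM by 0.24, KRT8 by 0.23, KRT18 by 0.19, EPCAM by -0.06 and SNAI2 by -0.06, and the dim ZEB1 by 0.24. Every one of the 10 differences kept its sign after quantile normalization and after median centring. The median was 0.23 over the 5 epithelial genes and 0.24 over the 5 mesenchymal genes, against 0.01 over all named genes. The mesenchymal median fell on the dim ZEB1. Of the mesenchymal genes that were not dim in both arrays, VIM and TWIST1 lay above 0 and FN1 and SNAI2 below. Against untransfected LTAD in place of siControl, after quantile normalization, VIM was higher by 2.15 and FN1 differed by -1.53. Each was the 1 member past 2-fold in its direction (3.95% of all named genes were higher and 3.76% lower). CD24, KRT8, KRT18 and TWIST1 turned to -0.35, -0.45, -0.59 and -0.42, and EPCAM and SNAI2 turned to 0.84 and 0.60.

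The difference between siControl and untransfected LTAD shows how much these markers vary when both arrays come from LTAD cells. VIM was 3.67-fold higher in siControl and EPCAM 1.86-fold higher, whereas FN1 was 2.01-fold lower, CD24 1.82-fold, KRT18 1.72-fold and KRT8 1.57-fold lower. Of the 10 genes 1 was at least 2-fold higher, beside 4.69% of all named genes, and 1 was at least 2-fold lower, beside 3.15%.

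VIM differed by 1.88 after quantile normalization, by 0.87 on deposited values and by 2.08 with median centring. FN1 differed by -1.01, just past 2-fold, by -1.67 on deposited values and by -0.46 with median centring, which ends the 2-fold call. EPCAM differed by 0.90, 0.14 and 1.35 in the same order. CD24 differed by -0.86, KRT18 by -0.79, TWIST1 by -0.68, KRT8 by -0.65 and ELF3 by -0.26, with ELF3 at 0.06 after median centring. SNAI2 differed by 0.66, or -0.42 on deposited values, and the dim ZEB1 by -0.06. The median was -0.65 over the 5 epithelial genes and -0.06 over the 5 mesenchymal genes, against 0.07 over all named genes. With median centring the epithelial median was -0.09. On the deposited values, where the siControl column lay lower as a whole, 7 of the 10 genes were at least 2-fold lower, beside 51.5% of all named genes. The spread between these arrays of the same line was wider than the siPSF difference for VIM, FN1, EPCAM, KRT8, KRT18, CD24, TWIST1 and SNAI2 after quantile normalization. With median centring this no longer held for FN1, at -0.46 against -0.60 with siPSF, or for KRT8, at -0.09 against 0.17. The array batch of each sample is not given in the sources used here, so transfection and array cannot be told apart.

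Some of these genes have near-copies in the genome, and probe sets of EPCAM, KRT18 and CD24 may read them. Probe set numbers follow position, since for 98.3% of 19421 named probe sets the gene's chromosome in the GRCh38.p14 gene table was the commonest among the 20 probe sets next in number. The EPCAM probe set used, the brighter of its pair, lay among 20 neighbours with a chromosome, all on chromosome 4, whereas EPCAM is on chromosome 2. The other EPCAM probe set had all 19 such neighbours on chromosome 2. After quantile normalization the pair gave nearly equal differences, -0.48 and -0.48 for LTAD against LNCaP and 0.90 and 0.80 for siControl against LTAD. On deposited values they read 11.18 and 10.71 in siControl against 11.04 and 10.71 in LTAD, so the second probe set showed almost no difference there.

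KRT18 had a probe set among neighbours on its own chromosome 12 (17 of 19), which was the one used, and another among 19 of 19 on chromosome 9. The remaining probe set, which carries MIR622 as well as KRT18 and so named no gene, lay among 20 of 20 on chromosome 13. The 3 differed by 0.49, 0.56 and 0.52 for LTAD against LNCaP and by -0.79, -0.81 and -0.85 for siControl against LTAD. The single CD24 probe set had 7 of 8 neighbours on chromosome Y, whereas CD24 is on chromosome 6. Which locus supplied its signal was not tested.

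**Figure D3:**
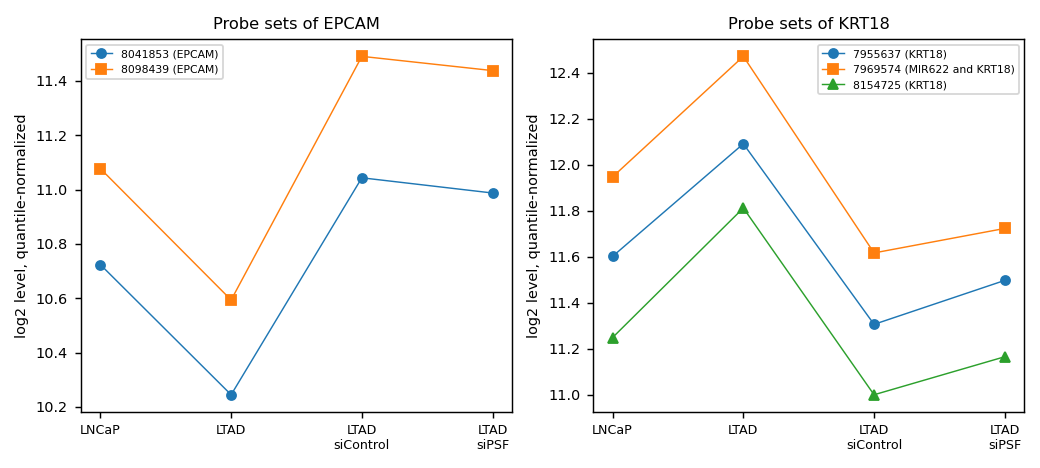
Quantile-normalized log2 level (vertical axis) of the 2 EPCAM probe sets and of the 3 probe sets that list KRT18 in the 4 arrays (horizontal axis), each point being 1 array and lines joining the points of a probe set. The probe sets of each gene keep the same order of arrays, with untransfected LTAD lowest for EPCAM and highest for KRT18.

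The wider epithelial programme was read from lists of related genes. Of 14 adherens, tight junction and polarity genes, 0 were at least 2-fold apart in any of the 4 comparisons on the scale used for each. Over all named genes, the share past 2-fold in 1 direction ran from 0.103% to 4.69% across these comparisons. A count of 0 among so few genes lies near that share. With median centring 1 of the 14 was at least 2-fold lower in LTAD than in LNCaP. There 1 was at least 2-fold higher in siControl than in LNCaP, and 1 in siControl than in LTAD. E-cadherin, CDH1, whose loss defines the transition in textbooks, read 12.06 in LNCaP, 12.00 in LTAD, 12.05 in siControl and 11.99 in siPSF after quantile normalization. On deposited values CDH1 read 12.33, 12.36, 11.73 and 11.69 in that order, lower in both transfected arrays, so its near-equal levels depended on the scale. The list's median was -0.08 for LTAD against LNCaP (0.09 on deposited values), 0.25 for siControl against LTAD (-0.64 on deposited values) and 0.07 for siPSF against siControl. Of 17 desmosome and other epithelial surface genes, 0 were 2-fold apart in these comparisons, beside the same shares of all named genes. Their median was 0.26 for LTAD against LNCaP, with 12 of 17 above 0 (0.14 and 11 of 17 with median centring). For siControl against LTAD it was -0.27, with 2 of 17 above 0. With median centring that median was 0.07, with 9 of 17 above 0. There 1 of the 17 was at least 2-fold higher, beside 7.9% of all named genes. In quantile-normalized values KRT8 and KRT18 were highest in untransfected LTAD. Of 8 other keratins, 7 were dim in all arrays and KRT14 was not.

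Of 17 epithelial transcription and splicing regulators, EHF and ELF5, ETS factors of the same subfamily as ELF3, were at least 2-fold lower in LTAD and in siControl than in LNCaP. Over all named genes 2.55% were lower in LTAD and 2.35% in siControl. EHF read 11.66 in LNCaP, 9.66 in LTAD, 8.13 in siControl and 8.41 in siPSF, and was 3.99-fold lower in LTAD than in LNCaP. ELF5 read 6.92, 5.66, 5.69 and 5.89 in that order and was dim in all but LNCaP, and on deposited values its difference of -0.90 for LTAD against LNCaP was under 2-fold. ELF3 differed from LNCaP by -0.15 in LTAD and -0.41 in siControl, the latter at -1.14 on deposited values. The list's median was 0.04 for LTAD against LNCaP, near the 0.01 over all genes.

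Of 16 other transcription factors of the transition, 9 reached the filter value in at least 1 array, and SNAI3, TCF3, TCF12 and SOX4 did so in all 4. SNAI1, ZEB2 and PRRX1 were among the 7 that were dim throughout. The list's median was -0.03 for LTAD against LNCaP (0.27 on deposited values), with 0 of 16 at least 2-fold apart. Over all named genes 1.69% were higher and 2.55% lower. N-cadherin, CDH2, read between 4.53 and 4.87 after quantile normalization and was dim in every array. Of 20 mesenchymal adhesion and cytoskeleton genes, 8 reached the filter value in any array and 0 were 2-fold apart between LTAD and LNCaP. That 0 stands beside the same shares of all named genes. MSN, the membrane-actin linker moesin, read 9.21 in LNCaP, 9.25 in LTAD, 10.50 in siControl and 10.29 in siPSF. It was higher in the transfected arrays, as VIM was, with a difference of 1.25 for siControl against LTAD, or 0.38 on deposited values. NES, the intermediate filament gene nestin, was at 1.01 there but dim in every array. With median centring 1 of the 20 genes, MSN, was past 2-fold in that comparison, beside 7.9% of all named genes higher. On deposited values NES read 6.33 in siControl and 6.57 in LTAD, the other direction.

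Of 26 matrix genes, of which 8 reached the filter value in any array, 3 were at least 2-fold higher in LTAD than in LNCaP (1.69% of all named genes) and 1 was lower (2.55%). The counts were 2 and 1 with median centring (1.47% and 2.75% of all named genes) and 4 and 0 on deposited values (3.25% and 1.63%). LUM, the matrix proteoglycan lumican, read 8.80 in LTAD, 3.78 in LNCaP, 3.21 in siControl and 2.97 in siPSF. COL5A2, a fibrillar collagen chain, read 8.48, 5.49, 5.49 and 5.24 in the same order, and both genes were dim in all but untransfected LTAD. TIMP2, an inhibitor of matrix metalloproteinases, read 8.48 in LNCaP, 9.53 in LTAD, 9.55 in siControl and 9.32 in siPSF, so after quantile normalization it was higher in all LTAD arrays than in LNCaP. Its difference of 1.05 between LTAD and LNCaP was 0.90 with median centring, under 2-fold. On deposited values it read 8.83 in LNCaP, 10.02 in LTAD, 9.15 in siControl and 8.88 in siPSF, so that siPSF lay close to LNCaP. The list's median was 0.18 for LTAD against LNCaP, against 0.01 over all genes. The gene that was lower, LOX, was dim in every array. The 10 stromal markers, LUM among them, summed to 642 in LNCaP, 1138 in LTAD, 780 in siControl and 823 in siPSF on the linear quantile-normalized scale, a sum over different and mostly dim probe sets. Without LUM, an alternative chosen after seeing the data, the other 9 summed to 628, 691, 771 and 815, so that LTAD lay below both transfected arrays. Of the 10, 7 read higher in LTAD than in LNCaP after quantile normalization and all 10 did on deposited values. The deposited LTAD column lay higher as a whole, with a median difference over all named genes of 0.26. On that scale 16 of the 17 desmosome and other epithelial surface genes were above 0 too. The collagen gene COL1A1 reached the filter value in all 4 arrays and COL3A1 in LTAD. After quantile normalization COL1A1, COL1A2 and COL3A1 were higher in LTAD than in LNCaP by 0.28, 0.31 and 0.43. TAGLN, ACTA2 and THY1 went the other way, at -0.33, -0.18 and -0.11. Of the 10 stromal markers 7 were dim throughout, COL1A2, DCN and TAGLN among them. The part of stromal signal in the FN1 and TWIST1 levels was not tested.

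Of 14 genes of TGF-beta signalling, a known inducer of the transition, 3 were at least 2-fold higher in LTAD than in LNCaP (1.69% of all named genes), and of these SMAD3 and SMAD7 were above the filter value in LTAD. SMAD3, which carries the receptor signal to the nucleus, read 7.64 in LNCaP, 8.65 in LTAD, 7.95 in siControl and 8.02 in siPSF, and was under 2-fold with median centring at 0.87. SMAD7, which blocks the receptor, read 6.85, 8.04, 7.02 and 7.08 in that order and was dim in all but LTAD. Like TWIST1, both were highest in untransfected LTAD. BMP7, a ligand of the same superfamily, read higher in both transfected arrays, with 4.80 in LTAD, 4.87 in LNCaP, 8.15 in siControl and 7.88 in siPSF, and was dim in both untransfected arrays. With siPSF against siControl, 0 of the 14 were 2-fold apart, beside 0.103% of all named genes higher and 0.51% lower.

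**Figure D4:**
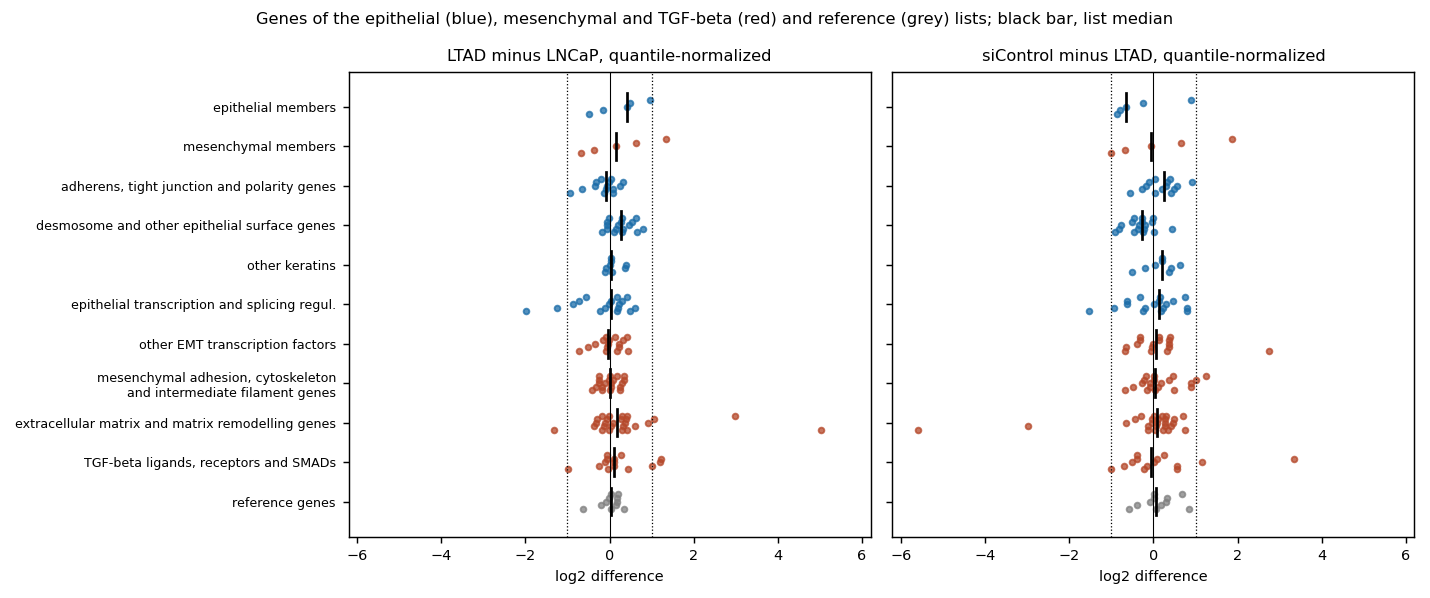
Log2 differences after quantile normalization (horizontal axis) for the genes of each list (vertical axis), each point 1 gene, for LTAD minus LNCaP and siControl minus LTAD; black bars are list medians, dotted lines mark 2-fold, and blue, red and grey stand for epithelial, mesenchymal or TGF-beta, and reference genes. The medians of the epithelial members lie at 0.42 and -0.65, and the other list medians lie between -0.27 and 0.26. LUM lies far out on either side, and since LUM was dim in all but LTAD its distance is no exact difference.

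The genes whose pattern over the 4 arrays was closest were found for the 3 members that spanned at least 2-fold after quantile normalization, VIM, FN1 and TWIST1, among 11049 genes that reached the filter value. Likeness was the root mean square distance between quantile-normalized patterns, each centred on its own mean. The genes closest to VIM were CYP2S1 at 0.03, MSI1 at 0.05 and RDH10 at 0.09. Those closest to FN1 were TBCK and NETO1 at 0.03 and FAM135A at 0.05. Those closest to TWIST1 were TMEM229B at 0.08, ADCY1 at 0.09 and CCDC92 at 0.10. With 4 arrays, such closeness among so many genes is a description of these arrays only.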

How the data were processed

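Total RNA of 4 samples was labelled with biotin and read on 4 Affymetrix whole-transcript arrays. The deposited log2 levels came from RMA, run by the authors with Affymetrix Expression Console according to the submitters' processing notes. Software versions, detection calls and the set of arrays RMA was run on are not given in the sources used here. Precision is limited by the number of arrays.

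Groups came from the sample titles, with 1 array each. Of 33297 probe sets, 19460 had 1 symbol, 1754 had several and named no gene, and 12083 were unnamed here. Symbols were updated by Entrez ID to RefSeq GRCh38.p14, which matched 19429. Where a gene had several probe sets (769 genes) the brightest on average was used, which left 18417 genes. Quantile normalization used all probe sets and was tested on simulated data. Counts run over all named genes at 2-fold. Python 3.11.15, numpy 2.4.6 and pandas 2.3.3 were used. All members are described. From each of 14 lists up to 3 genes per direction and comparison were named if at least 2-fold apart and bright enough in 1 array. CDH1, CDH2, SNAI1, SNAI3, ZEB2, PRRX1, TCF3, TCF12, SOX4, NES, LOX, KRT14, KRT19, HOXB13, DCN, TAGLN, COL1A1, COL1A2 and COL3A1 were named after their values were seen, and KLK3 and SFPQ as checks. TCF4, TGFB1, INHBA, CGN, ITGA5, ITGB1, ITGA6, ACTA2 and THY1 were likewise named after their values were seen. The members and lists were chosen with earlier results of these data known.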

Additional observations from a re-analysis of the deposited data

How the results depend on the processing

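Several counts of members depended on the scale. In LTAD against LNCaP, 3 members were at least 2-fold higher on deposited values (3.25% of all named genes), against 1 after quantile normalization (1.69%). The deposited values gave 0 higher and 2 lower members in siControl against LNCaP (0.369% and 26.8% of all named genes) in place of 1 and 0, and in siControl against LTAD 0 higher and 7 lower (0.413% and 51.5%) in place of 1 and 1. Centring each array on its median gave 2 higher and 0 lower for siControl against LTAD (7.9% and 2.51%). The deposited columns of the transfected arrays lie lower as a whole. With untransfected LTAD as the control for siPSF, 1 member was at least 2-fold higher and 1 lower (3.95% and 3.76%), in place of 0 and 0. A 1.5-fold threshold gave 3 higher and 1 lower in LTAD against LNCaP (5.5% and 7.4% of all named genes), 2 and 1 in siControl against LNCaP (9.89% and 7.14%), and 3 and 5 in siControl against LTAD (14.2% and 9.14%). The mean over probe sets and both stricter filters moved no count of members by more than 1.5 times. No member difference that passed 2-fold on the scale used for its comparison changed sign under any alternative. ELF3 in siControl against LTAD, under 2-fold on that scale, was at -1.16 on deposited values and at 0.06 with median centring. The second EPCAM probe set, an alternative chosen after seeing the data, gave the same direction in all 4 comparisons on the scale used for each. No paired analysis was possible because each group was 1 array. No error could be estimated, and without detection calls a dim level may be background.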

Other observations

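Several genes of the mesenchymal and TGF-beta lists differed by at least 2-fold between arrays after quantile normalization although their deposited levels were dim in every array. TCF4, a basic helix-loop-helix factor, read 7.26 in siControl and 7.09 in siPSF after quantile normalization, against 4.53 in LTAD and 5.26 in LNCaP. Its deposited levels were 6.75, 6.62, 5.29 and 5.66 in that order, with siControl still past 2-fold above both untransfected arrays. TGFB1, the ligand that gives the pathway its name, read 6.06 and 6.01 in the transfected arrays and 4.90 and 5.004 in LTAD and LNCaP. On deposited values it read 5.49 in both transfected arrays, 5.66 in LTAD and 5.40 in LNCaP, so the difference from LTAD turned sign and none reached 2-fold. INHBA, an activin subunit, read 5.88 in LTAD and 4.64 in LNCaP after quantile normalization. On deposited values it read 6.59 and 5.02, also past 2-fold. These genes were chosen after their values were seen.

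CGN, the tight junction protein cingulin, and SOX4, a transcription factor linked to the transition, were among the list genes with larger differences between siPSF and siControl, at 0.59 and 0.60 on deposited values, each under 2-fold. ITGA5, the fibronectin receptor alpha chain, was higher by 0.58 with siPSF, while FN1 itself differed by -0.54. ITGB1 differed by 0.06, and ITGA6 of the basal list by -0.77. CGN, SOX4, ITGA5, ITGB1 and ITGA6 were chosen after their values were seen, and no link between them was tested.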
